A study of Mus musculus with 13 samples.

Results

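A group of 7 protein-coding genes of the germline small RNA pathways was followed in the nuclei and cytoplasms of MTR4-null and WT mouse oocytes: Dicer1, Ddx4, Piwil2, Mael, Mov10l1, Tdrd1 and Tdrd9. They were taken by symbol from a deposited table of 23235 genes, and all 7 were found. MTR4 is the RNA helicase that hands nuclear RNA to the exosome, the main RNA-degrading complex of the nucleus, and the study compared the 2 compartments of oocytes with and without it. The oocytes were WT or Mtr4-null by their labels, which give neither the allele nor the way the gene was removed. The labels list MTR4-null nuclei (2 libraries) and cytoplasms (2 libraries) at day 21, WT nuclei (3 libraries) and cytoplasms (2 libraries) at day 21, and WT nuclei and cytoplasms at day 14 (2 libraries each). Each library was a pool of 10 nuclei or 10 cytoplasms parted by micromanipulation. Smart-seq2, which primes cDNA at poly(A) tails and needs little RNA, was used to make them.

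The table holds 1 value per gene for the MTR4-null nucleus, the WT nucleus, the MTR4-null cytoplasm and the WT cytoplasm, so no value has a replicate and no difference below has a test or a replicate check. The WT columns name no day: genotype and age cannot be told apart in any comparison of MTR4-null with WT. The values are FPKM (reads scaled to transcript length and library size) by name, but the column totals run from 594034 to 6637350, so the columns are not on 1 scale. Levels are therefore given as deposited, and differences are given relative to the median gene, on the log2 scale, after columns were brought to 1 scale by their median gene and 1 was added. A difference of at least 2-fold on that scale is called higher or lower. The read depth is unknown. Skiv2l2, the gene for MTR4, stood at 3.54 in the MTR4-null nucleus against 13.3 in the WT nucleus, and at 4.36 in the MTR4-null cytoplasm against 187 in the WT cytoplasm. All 16 oocyte markers were above 0 in all 4 columns, and in each column their sum was between 79.5 and 113 times that of the 7 genes. The summed level of 12 granulosa cell markers, for the somatic cells around the oocyte, was set against that of the 7 genes. It was 0.0715 times their sum in the MTR4-null nucleus, 0.0792 in the WT nucleus, 0.268 in the MTR4-null cytoplasm and 0.139 in the WT cytoplasm. The sum of the 7 itself differs by genotype, at 0.0333% of the column total in the MTR4-null cytoplasm and 0.0477% in the WT cytoplasm. As a share of the column total, the granulosa markers held 0.00149% in the MTR4-null nucleus and 0.00278% in the WT nucleus. In the cytoplasms they held 0.00892% in MTR4-null and 0.00662% in WT.

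Animal germ cells guard their genomes with small RNAs. PIWI proteins loaded with piRNAs find and cut transposon transcripts, and Tudor proteins and RNA helicases assemble the sites, called nuage, where piRNAs are made. In the mouse this pathway is needed in the male germline, while growing oocytes rely mainly on endo-siRNAs, which Dicer cuts from double-stranded RNA. Dicer1 encodes that enzyme. Piwil2 encodes MILI, a PIWI protein that slices RNA. Ddx4 (the mouse VASA) and Mov10l1 encode RNA helicases, the second of which binds piRNA precursors. Mael encodes Maelstrom, a nuage protein. Tdrd1 is a Tudor scaffold that binds PIWI proteins, and Tdrd9 joins a Tudor domain to a helicase.

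The PIWI gene and the Maelstrom gene differed between genotypes in opposite directions. Piwil2 was the lowest of the 7 in both WT columns and was higher in both MTR4-null columns, whereas Mael was the highest of the 7 in both WT columns and was lower in both MTR4-null columns. The other 5 genes lay within 2-fold in the nucleus, and 4 of these 5 did so in the cytoplasm, where Tdrd9 was lower.

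Piwil2 had 12.9 in the MTR4-null nucleus against 0.583 in the WT nucleus, and 49.6 in the MTR4-null cytoplasm against 16.0 in the WT cytoplasm. Its MTR4-null value was thus the higher one in each compartment before any rescaling. The MTR4-null nucleus column as a whole also has a larger total than the WT nucleus column, while the MTR4-null cytoplasm column has a smaller total than the WT cytoplasm column. On the relative log2 scale it was higher by 2.88 in the nuclei and by 2.31 in the cytoplasms. By rank, which the scale of a column cannot touch, Piwil2 stood at percentile 69.0 of all genes in the MTR4-null nucleus and 48.3 in the WT nucleus, and at percentile 72.3 in the MTR4-null cytoplasm and 56.7 in the WT cytoplasm.

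Mael had 24.7 in the MTR4-null nucleus against 83.7 in the WT nucleus, and 98.8 in the MTR4-null cytoplasm against 1736 in the WT cytoplasm. Its MTR4-null value was the lower one in both compartments, although the MTR4-null nucleus column as a whole has the larger total of the 2 nuclei. On the relative log2 scale its difference was -2.82 for the nuclei and -3.21 for the cytoplasms. Mael stood at percentile 77.9 in the MTR4-null nucleus and 94.8 in the WT nucleus, and at percentile 81.3 in the MTR4-null cytoplasm and 96.8 in the WT cytoplasm.

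A ratio of 2 genes within 1 column is free of that column's scale. Mael over Piwil2 was 1.92 in the MTR4-null nucleus and 144 in the WT nucleus, and 1.99 in the MTR4-null cytoplasm and 108 in the WT cytoplasm. The 2 genes thus lay within 2-fold of each other in both MTR4-null columns and at least 108-fold apart in both WT columns. The WT nucleus ratio divides by a Piwil2 value of 0.583, which is under the filter minimum of 1 and whose precision cannot be given. Mael and Piwil2 have the largest differences of the 7, in opposite directions, and the ratio combines both. Mael over Ddx4, the germ cell helicase, was 0.398 in the MTR4-null nucleus and 3.26 in the WT nucleus, and 0.249 in the MTR4-null cytoplasm and 4.02 in the WT cytoplasm. Piwil2 over Ddx4 was 0.207 in the MTR4-null nucleus and 0.0227 in the WT nucleus, and 0.125 in the MTR4-null cytoplasm and 0.0371 in the WT cytoplasm.

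**Figure D1:**
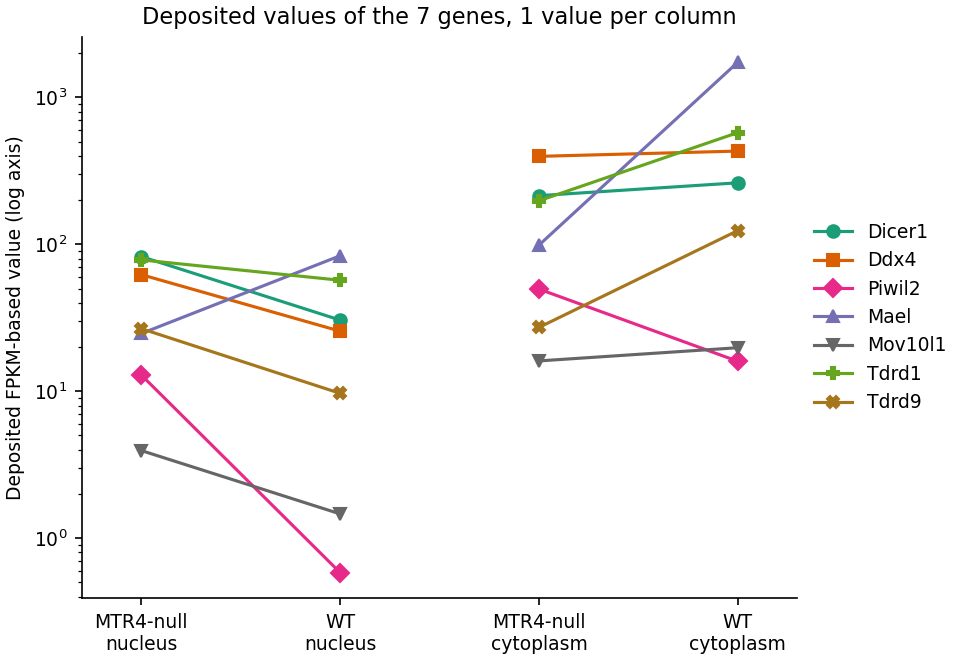
Deposited FPKM-based value (log axis) of each of the 7 genes in the MTR4-null and WT nucleus and cytoplasm, with 1 value per column and a line joining the genotypes within a compartment. Mael and Piwil2 lie 144-fold apart in the WT nucleus, where Piwil2 is at 0.583, and 1.92-fold apart in the MTR4-null nucleus. Heights are not comparable between columns, whose scales differ.

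The remaining piRNA factors kept close to the median gene in the nucleus. Ddx4 had 62.2 in the MTR4-null nucleus against 25.6 in the WT nucleus, and 397 in the MTR4-null cytoplasm against 431 in the WT cytoplasm. These are relative log2 differences of 0.18 and 0.78, both inside 2-fold, although the cytoplasmic one was 1.01 with columns divided by their totals and 1.10 with quantile normalization. Ddx4 was the highest of the 7 in the MTR4-null cytoplasm, where Mael held that place in WT. Mov10l1, also a helicase gene, was near the bottom throughout, with 3.95 in the MTR4-null nucleus against 1.46 in the WT nucleus, and 16.1 in the MTR4-null cytoplasm against 19.8 in the WT cytoplasm. Its relative differences were 0.29 and 0.53, and with quantile normalization -0.31 and 0.045.

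Tdrd1 and Tdrd9 had lower relative differences than Ddx4 and Mov10l1 in the cytoplasm, and Tdrd1 did so in the nucleus as well. Tdrd1 had 78.4 in the MTR4-null nucleus against 57.0 in the WT nucleus, and 198 in the MTR4-null cytoplasm against 576 in the WT cytoplasm. Relative to the median gene it was -0.63 in each compartment, within 2-fold. Tdrd9 had 26.7 in the MTR4-null nucleus against 9.68 in the WT nucleus, and 27.2 in the MTR4-null cytoplasm against 124 in the WT cytoplasm. Its relative difference was 0.36 between nuclei and -1.23 between cytoplasms, where it was called lower. With columns divided by their totals the cytoplasmic difference was -0.97 and was no longer called. In the cytoplasm Tdrd9 stood at percentile 64.8 in MTR4-null and 77.3 in WT, while in the nucleus it stood at 79.0 in MTR4-null and 76.4 in WT. A protein-coding gene on the opposite strand, Rd3l, lies within Tdrd9 in the GENCODE M21 annotation, and the sources used here do not say whether counting used strand.

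Dicer1 had 82.6 in the MTR4-null nucleus against 30.5 in the WT nucleus, and 215 in the MTR4-null cytoplasm against 262 in the WT cytoplasm. It was the highest of the 7 in the MTR4-null nucleus and held percentiles 91.2 and 88.0 in the MTR4-null and WT nucleus, and 89.9 and 85.0 in the MTR4-null and WT cytoplasm. Its relative log2 differences of 0.34 (nucleus) and 0.61 (cytoplasm) lay within 2-fold. Mouse oocytes are known to make a short Dicer from a promoter inside a transposon in the gene. The table has 1 value per gene, so this form and the full-length one were not separated, while GENCODE M21 lists 6 Dicer1 transcripts, of which 2 are protein-coding and 2 retain an intron.

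**Figure D2:**
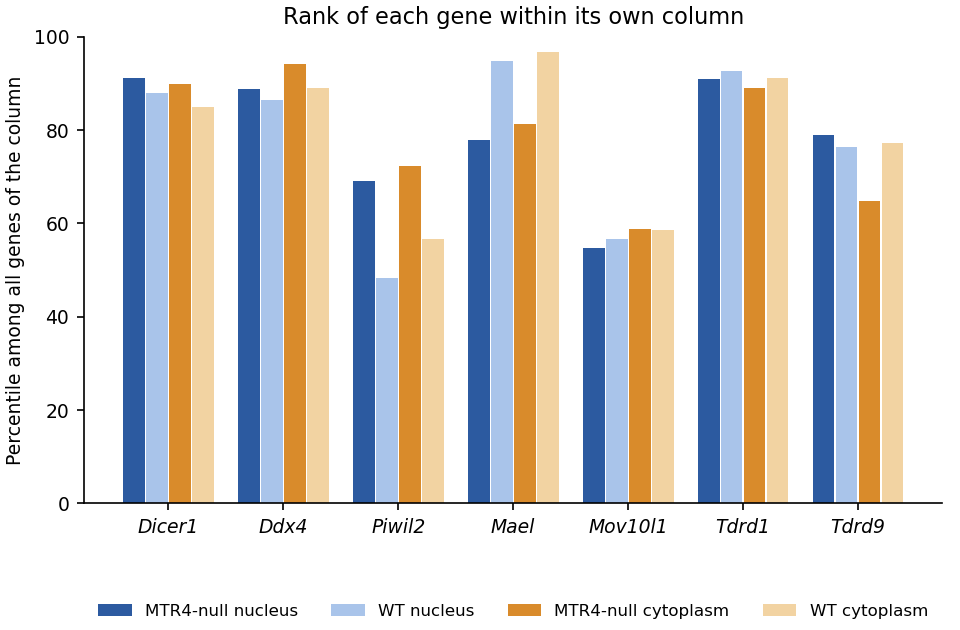
Percentile of each of the 7 genes among all 23235 genes of its column, with bars from left to right for the MTR4-null nucleus, WT nucleus, MTR4-null cytoplasm and WT cytoplasm. Piwil2 ranks higher and Mael lower in both MTR4-null columns, Tdrd9 ranks lower in the MTR4-null cytoplasm, and the ranks of Dicer1, Ddx4, Mov10l1 and Tdrd1 move by at most 5.07 percentile points between genotypes.

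As a group the 7 genes were set beside all genes tested. In the nucleus 1 of 7 was higher and 1 lower, against 25.8% and 16.2% of the 14240 genes kept because 2 or more columns reached a value of 1; all 7 passed that filter. In the cytoplasm 1 was higher and 2 were lower, against 24.2% and 18.6% of kept genes. The 7 had a median of 0.29 for the nucleus and 0.53 for the cytoplasm, beside 0.055 and 0.055 for all kept genes. In both compartments that median is the value of Mov10l1, a low gene, and with quantile normalization the cytoplasmic median of the 7 was 0.045. What set Piwil2 and Mael apart from the other 5 was the size of their differences: 96.0% of kept genes lay below Piwil2 in the nucleus and 92.6% did so for the cytoplasm, and 1.62% and 1.05% lay below Mael. Across the whole table the difference also followed the WT level. Kept genes with a rescaled WT value under 5, where Piwil2 lies, had a median of 1.04 (nucleus) and 0.84 (cytoplasm), and those at 200 or more, where Mael lies, had -0.55 and -0.77. The construction of the measure gives some of this trend: the WT value enters the difference with a minus sign, and a gene low in WT passes the filter more readily where it is high in MTR4-null. Its part in the values of Piwil2 and Mael was not tested.

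**Figure D3:**
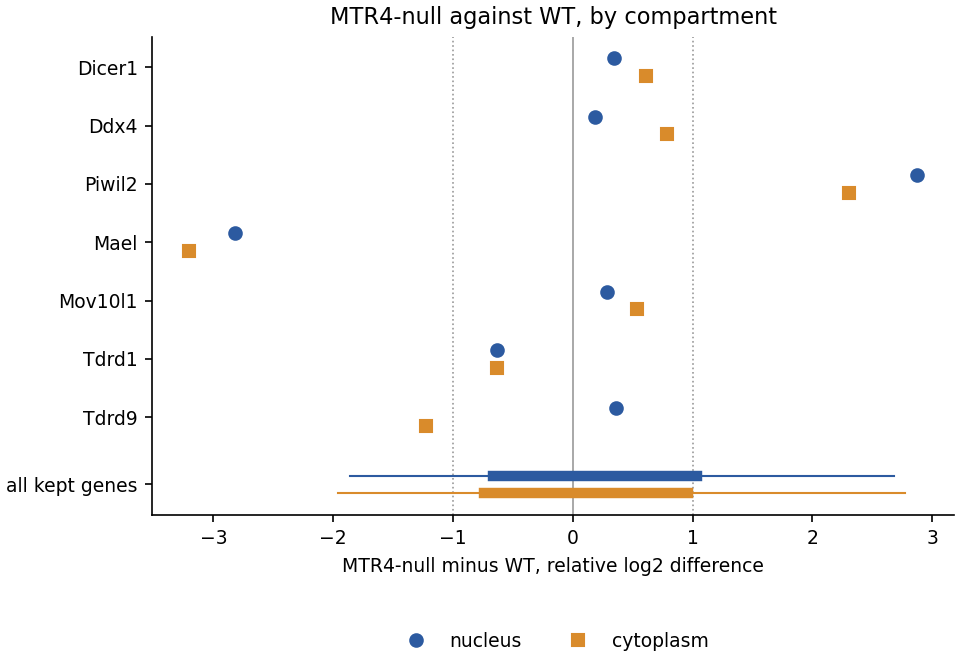
MTR4-null minus WT as a relative log2 difference for each of the 7 genes in the nucleus (circles) and the cytoplasm (squares); dotted lines mark 2-fold, and the bottom bars give the interquartile range (thick) and the 5th to 95th percentile (thin) of all kept genes. Piwil2 (2.88 and 2.31) and Mael (-2.82 and -3.21) lie toward the ends of the range in both compartments, and Tdrd9 is lower in the cytoplasm at -1.23.

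The nucleus was then set against the cytoplasm within each genotype. In MTR4-null oocytes Tdrd9 was higher in the nucleus relative to the median gene, at 1.55, and Ddx4 was lower there, at -1.03. With a minimum of 5 in place of 1 in the filter Ddx4 was at -0.98 and no longer called, and with the values as deposited Tdrd9 was at -0.028. The other 5 genes lay between -0.35 and 0.30. The shares of kept genes called were 12.4% higher and 8.83% lower, so 1 of 7 in each direction is close to the table. In WT oocytes none of the 7 was called, and they ranged from -0.86 for Piwil2 to 0.53 for Dicer1, where 9.73% of kept genes were higher and 7.46% lower. As deposited, the MTR4-null value of Tdrd9 was nearly the same in nucleus and cytoplasm (26.7 and 27.2), while its WT values were 9.68 for the nucleus and 124 for the cytoplasm. These columns are not on 1 scale. As deposited, the median gene differed between nucleus and cytoplasm by -1.48 in MTR4-null and by -3.27 in WT, on the log2 scale.

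The change of this nuclear position between genotypes was called for Tdrd9 alone of the 7. Its nucleus minus cytoplasm difference was 1.59 higher in MTR4-null than in WT, above the value of 93.4% of kept genes, while 16.9% of kept genes were called higher and 15.3% lower. The other 6 genes lay between -0.60 for Ddx4 and 0.57 for Piwil2. Within a column, Tdrd9 over Mov10l1 was 6.76 in the MTR4-null nucleus and 6.62 in the WT nucleus, and 1.69 in the MTR4-null cytoplasm and 6.27 in the WT cytoplasm. Against Mov10l1, a low gene, the MTR4-null cytoplasm value stood apart from the other 3. Tdrd9 over Dicer1 was also lowest there, at 0.127, with 0.473 in the WT cytoplasm, 0.323 in the MTR4-null nucleus and 0.317 in the WT nucleus. Tdrd9 over Tdrd1 was 0.340 in the MTR4-null nucleus and 0.170 in the WT nucleus, and 0.137 in the MTR4-null cytoplasm and 0.215 in the WT cytoplasm. Which column stands apart thus depends on the gene divided by.

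Markers of other cells were read in the same way. Of 10 granulosa markers that passed the filter, 4 were higher and 1 lower in the MTR4-null cytoplasm than in the WT cytoplasm, against 24.2% and 18.6% of kept genes. Foxl2 and Gatm did not pass and are outside these counts. Foxl2 had 7.10 in the MTR4-null cytoplasm against 0.117 in the WT cytoplasm, and Gatm 4.49 against 0. The transcription factor gene Wt1 had 16.4 in the MTR4-null cytoplasm against 1.41 in the WT cytoplasm, Hsd3b1, for a steroid-making enzyme, 42.0 against 15.3, and Kitl, for the ligand of the oocyte receptor KIT, 14.7 against 6.34. Cyp19a1, for aromatase, was the 1 lower gene, with 15.4 against 78.0. Inha had the highest value of the granulosa list in both cytoplasms, 86.8 against 253, and lay within 2-fold (-0.62). Its nuclear values were 0 in MTR4-null and 1.92 in WT (-2.98). Between nuclei 1 of the 10 was higher and 2 were lower, against 25.8% and 16.2% of kept genes. Set against their cytoplasm, 5 of the 10 were lower in the MTR4-null nucleus (median -1.34) and 2 in the WT nucleus, against 8.83% and 7.46% of kept genes, with 0 higher in either. Amh, a granulosa hormone gene, had 1.55 in the MTR4-null nucleus and 0 in the WT nucleus, and 3.31 in the MTR4-null cytoplasm and 1.08 in the WT cytoplasm. The part of granulosa RNA in the cytoplasmic values of the 7 genes was not tested. The 8 theca, blood and endothelial markers summed to 18.0 in the MTR4-null nucleus and 13.2 in the WT nucleus, and to 43.8 in the MTR4-null cytoplasm and 193 in the WT cytoplasm, and Pecam1 was the highest of them. Among the 16 oocyte markers 4 were higher and 2 lower between nuclei (25.8% and 16.2% of kept genes), and 0 were higher and 3 lower between cytoplasms (24.2% and 18.6%), Nobox being the lowest at -2.40.

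Without rescaling, the counts followed the column scales. In the nuclei 5 of the 7 were then higher in MTR4-null and 1 lower, against 46.3% and 3.69% of kept genes, and in the cytoplasms 1 was higher and 3 were lower, against 14.9% and 43.7%. In the nucleus relative to the cytoplasm, 0 were higher and 6 lower in MTR4-null, against 2.91% and 71.9% of kept genes, and 0 were higher and 7 lower in WT, against 1.74% and 91.2%. The change of nuclear position was then higher for all 7, against 71.7% of kept genes higher and 3.32% lower.

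**Figure D4:**
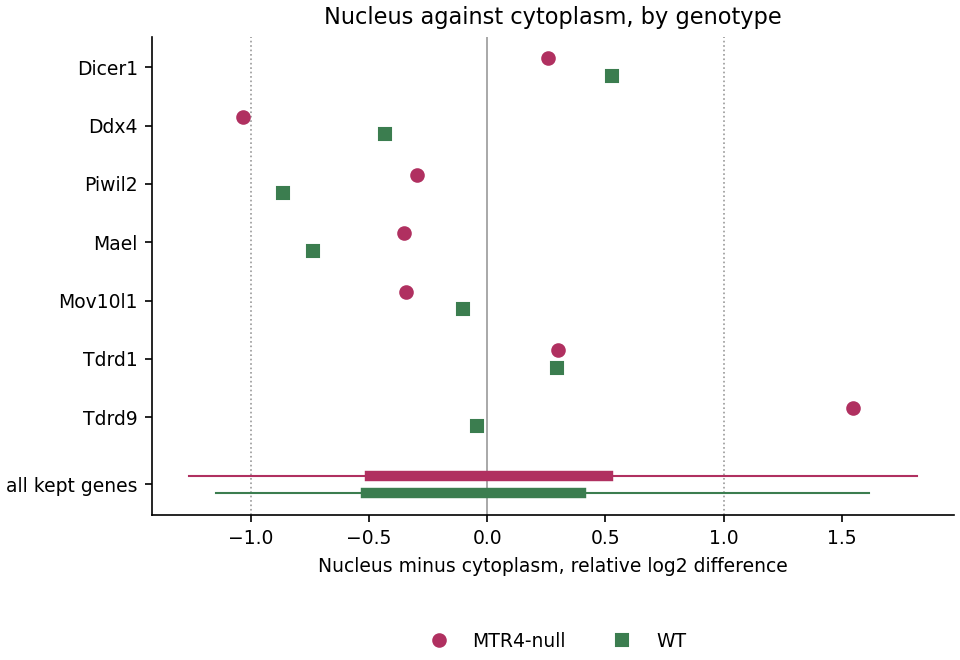
Nucleus minus cytoplasm as a relative log2 difference for each of the 7 genes in MTR4-null (circles) and WT oocytes (squares), with dotted lines at 2-fold and bottom bars for all kept genes as in the plot of genotypes. Tdrd9 is at 1.55 in MTR4-null and -0.042 in WT, the widest gap between genotypes among the 7.

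Sequence upstream of the genes was examined for features that the choice of genes did not use. RefSeq windows of build GRCm38.p6 were available for 6 of the 7 genes, with no entry for Piwil2, and the 250 bases before each annotated start were searched on both strands. The E-box CACGTG, the site of the MAX family of transcription factors, is known from germline promoters that somatic cells keep silent. It was present for 5 of the 6 genes, all but Dicer1, against 6.02% of all 32851 windows, 6.86% of 27025 genes taken over all their windows, and 9.72% of the 10189 windows with at least 50% C+G and an observed over expected CpG of at least 0.6. Whether the Dicer1 window is the promoter of the short oocyte form was not examined. These 40-base stretches are shown because they hold that shared hexamer, in capitals, 5′ to 3′ on the strand of the gene:
Ddx4, chr13:112652317-112652356, minus strand: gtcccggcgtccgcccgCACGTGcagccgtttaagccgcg
Mael, chr1:166238945-166238984, minus strand: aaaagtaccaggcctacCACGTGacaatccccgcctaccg
Mov10l1, chr15:88982744-88982783, plus strand: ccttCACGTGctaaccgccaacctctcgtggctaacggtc
Tdrd1, chr19:56826181-56826220, plus strand: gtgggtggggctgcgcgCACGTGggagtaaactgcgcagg
Tdrd9, first, chr12:111971377-111971416, plus strand: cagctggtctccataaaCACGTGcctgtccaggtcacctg
Tdrd9, second, chr12:111971447-111971486, plus strand: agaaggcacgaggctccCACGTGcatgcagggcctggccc

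CACGTG is its own reverse complement, so both strands hold it. It began 29 bases before the annotated start in Ddx4, 77 in the second of 3 Tdrd1 windows (the first overlaps it and holds the same hexamer), 95 and 165 in Tdrd9, 223 in Mael and 246 in Mov10l1, so its distance was not shared. Genes with the hexamer included Mael, lower in both MTR4-null columns, Tdrd9, lower in the MTR4-null cytoplasm, and Ddx4 and Mov10l1, within 2-fold between genotypes. Only Dicer1 lacked the hexamer and Piwil2 had no window, so these genes cannot show whether its presence goes with their difference. The wider piRNA list below held it in 4 of 16 genes with a window (Piwil1, Pld6, Fkbp6 and Stk31), the miRNA and endo-siRNA machinery in 1 of 15 and the oocyte markers in 1 of 12. TAATTG and TAATTA, the letters of oocyte homeobox sites, were in none of the windows of the 6 genes, against 7.17% and 4.84% of all windows. With so few windows such an absence is near those shares and sets these genes apart in no way. Shares in C+G-rich windows were not taken for these letters. The windows were rich in C+G, from 54.8% in Tdrd9 to 76.0% in Dicer1 (one Tdrd1 window had 46.4%), where the median window had 52.4%. A match of letters is a description, not a bound site.

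The other genes of the piRNA pathway lay on both sides. Of 22 listed, 21 were in the table and 19 passed the filter. In the nucleus 6 of 19 were higher in MTR4-null and 5 lower, with a median of -0.40, and in the cytoplasm 3 were higher and 6 lower, with a median of 0.32. The shares of all kept genes were 25.8% higher and 16.2% lower in the nucleus, and 24.2% and 18.6% in the cytoplasm. In both compartments the median had the sign of the smaller count. As deposited 9 were higher and 1 lower in the nucleus, against 46.3% and 3.69% of kept genes, and 1 was higher and 9 lower in the cytoplasm, against 14.9% and 43.7%. Piwil1, the PIWI gene for MIWI, was lower in both compartments like Mael: it had 2.57 in the MTR4-null nucleus against 10.0 in the WT nucleus, and 3.23 in the MTR4-null cytoplasm against 64.1 in the WT cytoplasm, with relative differences of -2.80 and -2.83. Piwil4, for the nuclear protein MIWI2 with which TDRD9 works in male germ cells, did not pass the filter, and its highest value was 0.917, in the WT cytoplasm.

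Tudor genes went both ways. Tdrkh, which anchors PIWI proteins at mitochondria, had 18.4 in the MTR4-null nucleus against 19.3 in the WT nucleus, and 41.7 in the MTR4-null cytoplasm against 337 in the WT cytoplasm. Tdrd12 had 122 in the MTR4-null nucleus against 129 in the WT nucleus, and 435 in the MTR4-null cytoplasm against 2496 in the WT cytoplasm. Both were lower in both compartments relative to the median gene (-1.14 and -2.06 for Tdrkh, -1.17 and -1.61 for Tdrd12), as was Rnf17 (-1.37 and -1.27). Tdrd5 was higher in both, at 1.004 and 1.40, with 175 in the MTR4-null nucleus against 40.7 in the WT nucleus and 545 in the MTR4-null cytoplasm against 386 in the WT cytoplasm. Tex15, a germ cell partner of the nuclear piRNA machinery, was also higher in both (1.28 and 1.57).

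Several genes were called in 1 compartment. Asz1, a mitochondrial nuage gene, was lower in the nucleus at -1.40. Fkbp6, Tex19.1, Pld6 and Pnldc1, the last 2 acting on piRNA ends or precursors, were higher in the nucleus at 1.72, 1.38, 1.28 and 1.21. Exd1 and Stk31 were lower in the cytoplasm at -1.54 and -1.06, and Wdr77, the partner of the arginine methylase Prmt5, was higher there at 1.49. Gtsf1 had the highest value of the list in each column, per length, with 899 in the MTR4-null nucleus against 751 in the WT nucleus and 2228 in the MTR4-null cytoplasm against 8175 in the WT cytoplasm, and lay within 2-fold in both compartments.

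The machinery that works with Dicer for miRNAs and endo-siRNAs lay mostly within 2-fold in the nucleus and on both sides in the cytoplasm. All 16 genes passed the filter. In the nucleus 2 were higher in MTR4-null and 1 lower, with a median of 0.23, against 25.8% and 16.2% of kept genes. In the cytoplasm 6 were higher and 3 lower, with a median of -0.084, against 24.2% and 18.6%. As deposited 8 were higher and 0 lower in the nucleus, against 46.3% and 3.69% of kept genes, and 2 were higher and 8 lower in the cytoplasm, against 14.9% and 43.7%. Tnrc6a, the silencing partner of Argonautes, was higher in both compartments, with 14.04 in the MTR4-null nucleus against 2.27 in the WT nucleus and 52.2 in the MTR4-null cytoplasm against 20.1 in the WT cytoplasm. Dgcr8, the RNA-binding subunit of the Microprocessor, had 85.1 in the MTR4-null cytoplasm against 45.8 in the WT cytoplasm (1.72), and Lin28a, which blocks let-7 processing, had 86.1 in the MTR4-null cytoplasm against 58.1 in the WT cytoplasm (1.42). The tailing enzyme genes Zcchc11 and Zcchc6 (1.92 and 1.04) and Tnrc6c (1.05) were also higher there.

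Lower in the cytoplasm were the Argonaute gene Ago3, listed in the table as Eif2c3, the exportin gene Xpo5 and the Dicer partner Tarbp2. Ago3 had 12.5 in the MTR4-null cytoplasm against 136 in the WT cytoplasm (-2.37), Xpo5 15.5 against 95.8 (-1.61) and Tarbp2 299 against 1146 (-1.03). Ago2, the Argonaute that slices and that endo-siRNAs use in oocytes, lay within 2-fold in both compartments, with 21.1 in the MTR4-null cytoplasm against 50.7 in the WT cytoplasm. Prkra, the other double-stranded RNA-binding partner of Dicer, was higher in the nucleus at 2.11, with 3.16 in MTR4-null against 0.130 in WT, and Tnrc6b was lower there at -1.06.

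**Figure D5:**
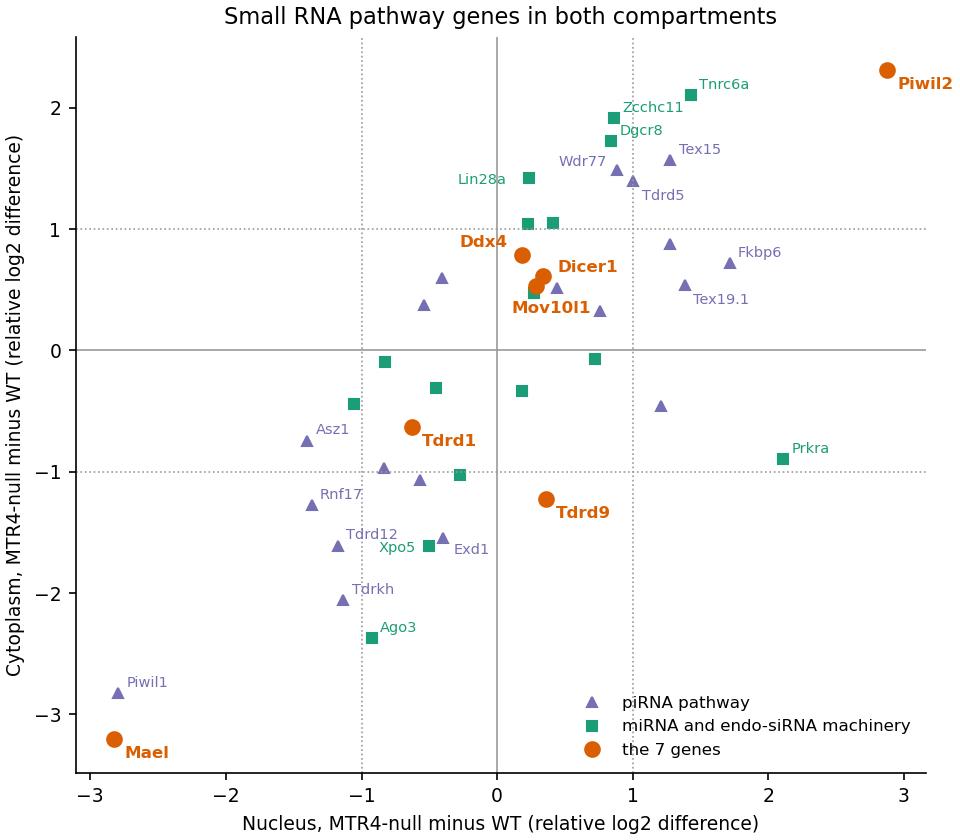
Relative log2 difference of MTR4-null from WT in the nucleus (x axis) and the cytoplasm (y axis) for the 7 genes (circles), 19 other piRNA pathway genes (triangles) and 16 genes of the miRNA and endo-siRNA machinery (squares), with dotted lines at 2-fold. Mael and Piwil1 lie together at the lower left, Piwil2 lies farthest to the upper right, where Tnrc6a, Tex15 and Tdrd5 are also past 2-fold in both compartments, and Tdrd9 lies at 0.36 in the nucleus and -1.23 in the cytoplasm.

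Genes known as targets of oocyte endo-siRNAs were not all on 1 side. Ppp4r1 had 22.7 in the MTR4-null nucleus against 10.8 in the WT nucleus, and 50.6 in the MTR4-null cytoplasm against 283 in the WT cytoplasm, a relative difference of -0.020 and -1.54. Rangap1 was higher in the nucleus at 1.36 and lay at 0.42 in the cytoplasm. Pdzd11 was lower in both, at -1.06 and -1.22. Hdac1 (0.29 and -0.14) and Kif4 (-0.15 and -0.35) were within 2-fold in both. Reads of these genes can be shared with the pseudogenes or antisense transcripts that give rise to the siRNAs, so the values are uncertain.

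Likeness was measured as the distance over the 4 rescaled log2 levels, among 14239 other kept genes. Genes nearest to Dicer1 were Set and Plekhg3 (distances 0.19 and 0.19), and those nearest to Tdrd1 were Usp16 and Trpc4ap (0.16 and 0.17). For Ddx4 they were 2010107H07Rik and B3gnt2 (0.26 and 0.30), for Mov10l1 Nbas and Ttc39b (0.26 and 0.28), for Tdrd9 E130311K13Rik and Xpo6 (0.30 and 0.36), and for Piwil2 Stim1 and Chmp6 (0.35 and 0.36). Mael had no gene as near: the closest, Gm839 and Crabp2, were at 0.77 and 0.83. Among the 7, Dicer1 and Ddx4 were most alike (1.23) and Piwil2 and Mael least alike (9.35). With 4 columns such a likeness is a description of levels only.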

How the data were processed

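Poly(A) RNA of mouse oocyte nuclei and cytoplasms was sequenced in 13 libraries, per the labels. TopHat2 2.1.1, Cufflinks 2.2.1 and build mm9 stand in the submitters' processing notes, without roles or settings. The deposited table holds FPKM by its name, treated here as a score because the authors' columns are not on 1 scale; it has 4 columns, 1 per genotype and compartment, and the way libraries were combined into columns is not stated. The columns headed MTR4 were taken as MTR4-null, the one genotype of the labels that names it.

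Genes with at least 1 in at least 2 columns were kept (14240). Columns were rescaled by the median, over genes, of a column's value over the geometric mean of the 4 columns, taken from the 13328 kept genes above 0 in all columns (divisors 0.594 for the MTR4-null nucleus, 0.279 for the WT nucleus, 1.85 for the MTR4-null cytoplasm and 3.47 for the WT cytoplasm). A pseudocount of 1 was added before log2, which understates the change of low genes. As deposited, the median gene differed by 0.91 (nucleus) and -0.79 (cytoplasm) between MTR4-null and WT, and by -1.48 (MTR4-null) and -3.27 (WT) between nucleus and cytoplasm. Differences were described by size (2-fold), because with 1 value per condition no limma fit was possible. The rescaling was checked on simulated columns with known scales, which says nothing about the error of the deposited values. All 7 genes were named, and of the pathway lists up to 5 per direction and genotype comparison with the largest relative difference, as well as all endo-siRNA targets; of the oocyte, theca, blood and endothelial lists only the extremes are named. Piwil4, Ago2, Gtsf1, Stk31, Zcchc6, Foxl2 and Gatm fall outside that rule and were chosen after their values were seen. The genes and lists were chosen with earlier results of these data known. The Henmt1 and Argonaute entries were matched by older symbols, and Spocd1 had no match. Analyses used Python 3.11.15, NumPy 2.4.6, pandas 2.3.3 and matplotlib 3.10.9.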

Additional observations from a re-analysis of the deposited data

How the results depend on the processing

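Each difference was recomputed with the values as deposited, with columns divided by their totals, with quantile normalization, with pseudocounts of 0.1 and 5, and with no filter or a minimum of 5. Piwil2 stayed at least 2-fold higher in MTR4-null in both compartments under all 7 alternatives (1.91 to 3.31 in the nucleus, 1.57 to 2.51 in the cytoplasm), and Mael at least 2-fold lower (-2.92 to -1.72 and -4.12 to -2.96). Tdrd9 in the cytoplasm ran from -2.15 to -0.97, passing 2-fold in all but the division by totals. As deposited, 5 genes were higher in the MTR4-null nucleus (median 1.25), and the cytoplasmic median was -0.29. As deposited, the nucleus was higher than the cytoplasm for 0 genes and lower for 6 in MTR4-null (median -1.79), where Tdrd9 turned to -0.028, and lower for 7 in WT (median -3.43), while the nuclear position was higher in MTR4-null for 7 (median 1.70). These follow from the column scales: medians of all genes move alike. In the MTR4-null cytoplasm 2 genes were higher with division by totals or quantile normalization, the second being Ddx4, and 1 was lower with division by totals. The cytoplasmic median of the 7 was 0.045 with quantile normalization. With a minimum of 5, 0 genes were lower in the MTR4-null nucleus than cytoplasm (Ddx4 at -0.98). In WT, 1 gene was lower in the nucleus with quantile normalization or a pseudocount of 0.1, namely Piwil2. No paired analysis was possible because the table has no column for a single library, so the planned replicate fits were not run. For the changes other than those as deposited the cause was not tested. The depth is unknown, so the precision of low values such as that of Piwil2 in the WT nucleus cannot be given.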
